A study of Drosophila melanogaster with 4 samples.

Results

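miR-210 is a microRNA (miRNA) of photoreceptors and other cells of the visual system, and its loss is known to harm the fly retina. A miRNA is cut from an RNA hairpin as a duplex of 2 strands, here miR-210-3p and miR-210-5p, and 1 of them usually stays in an Argonaute protein as the guide. The guide finds target mRNAs mainly through its seed (bases 2 to 8), so a start moved by 1 nt gives another seed. In flies Ago1 holds most miRNA guides, while siRNAs and some miRNA strands are loaded into Ago2.

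Small RNAs bound to Ago1 or Ago2 were sequenced from whole male Drosophila melanogaster carrying FLAG-HA-Ago2, an Ago2 with an epitope tag, in all groups, raised at 25 °C. Flies were 3 d or 30 d old. Ago1 was pulled down with an antibody to the protein and Ago2 with beads against the FLAG tag, so the 2 proteins differ in reagent, and no input or mock library was analysed here. Each of the 4 groups had 1 library, so values of the libraries are set side by side without a replicate test, and all intervals are 95% and cover counting error only. Which cells of the fly held miR-210 cannot be seen here. A difference in the number of cells with miR-210 and a difference in miR-210 per cell cannot be told apart. The libraries listed from 13491805 to 34554191 reads, and abundance is given as RPM, the reads per 1000000 listed in a library.

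The miR-210 members were the listed sequences that matched a mature strand exactly for 14 nt or more, and whose start and end lay within 8 nt and 10 nt of the annotated ones. They numbered 65 of 7181 distinct sequences, 44 on the 3p and 21 on the 5p strand. The hairpin was chosen by the measured shares of its 3p starts and by how these and the abundance differed between the proteins and ages, so all such values describe these libraries and were not tested. The gene mir-210 lies on chromosome X, and no other gene or element of the BDGP6 annotation overlaps it. The strand lengths were taken from that annotation, in which mir-210 alone of 223 hairpins has 2 strands of 23 nt whose starts lie 36 nt apart. Only the spacing was compared with the reads, and hairpins that share the spacing alone were not counted. The files use an earlier build, so no coordinates are given. Listed sequences found by short motifs overlapped into 1 stretch of 63 nt, in which the most abundant 5p and 3p sequences began 36 nt apart. Only 7 reads ran across the 3p start by more than 2 nt on each side and so joined the loop to the 3p strand. Reads that crossed it by less were not counted in this. All 44 and 21 members lay wholly in the stretch. It is shown first because it places every start and end described here, with the 2 annotated strands in capitals and T for U:
hairpin stretch: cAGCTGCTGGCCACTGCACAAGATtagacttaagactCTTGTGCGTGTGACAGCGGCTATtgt
The most abundant 3p forms follow, with the seed in capitals, because their starts differ by 1 nt and give them different seeds:
C start, 21 nt: cTTGTGCGtgtgacagcggct
U start, 20 nt: tTGTGCGTgtgacagcggct
Both end on the same base. The C start is the annotated one, and the U start lies 1 nt downstream and carries the seed by which the miR-210 family is known in mammals. No arm of another hairpin had either seed at its main start, an arm being a group of overlapping listed sequences taken as 1 strand with its end variants.

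In each protein's libraries a different start led. The C start held 79.7% (79.5 to 79.9) of miR-210-3p reads with Ago1 at 3 d and 86.8% (86.7 to 87.0) at 30 d. With Ago2 it held 23.3% (21.9 to 24.9) at 3 d and 12.1% (11.6 to 12.6) at 30 d. The U start took nearly all other reads, at 20.2% and 13.1% in the Ago1 libraries of 3 d and 30 d and at 76.4% and 87.4% in those of Ago2. The C-start share was thus higher with Ago1 than with Ago2 at both ages. Without replicate libraries, overlap between the proteins could not be tested. All further starts together made up from 0.0705% to 0.494% of the reads of a library.

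In read counts, the C start had 126418 and 253681 in the Ago1 libraries of 3 d and 30 d, and 718 and 2015 in those of Ago2. The U start had 32070, 38208, 2350 and 14510 reads in the same order. There were thus 3.94 C-start reads for each U-start read in the younger and 6.64 in the older Ago1 library, and 3.27 and 7.20 U-start reads for each C-start read in those of Ago2. The ratio of U-start to C-start reads was 12.9-fold higher with Ago2 at 3 d, a log2 difference of 3.69 (3.57 to 3.81). At 30 d it was 47.8-fold higher, a log2 difference of 5.58 (5.51 to 5.65). Being within a strand, these ratios need no scaling between libraries.

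**Figure D1:**
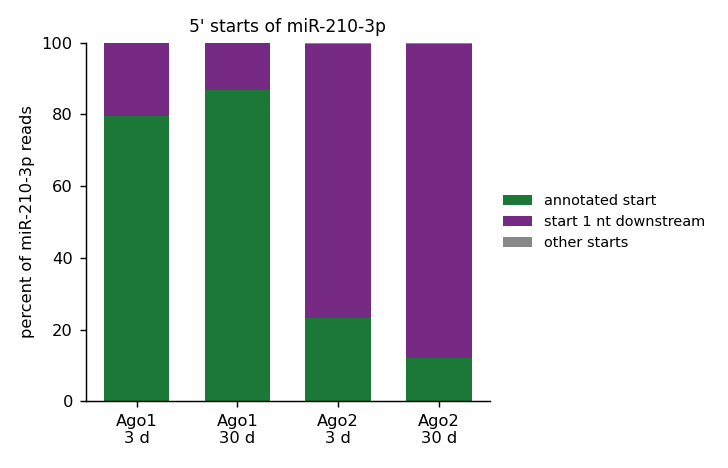
Percent of miR-210-3p reads (vertical axis) by 5′ start in each of the 4 libraries (bars, 1 library each). The annotated C start fills 79.7% and 86.8% of the Ago1 bars and 23.3% and 12.1% of the Ago2 bars, with the start 1 nt downstream filling nearly all of the rest.

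Fly Ago1 is generally known for strands that start with U, and Ago2 takes up many strands that start with C. Of all listed reads, 6.51% and 6.35% started with C with Ago1 at 3 d and 30 d, and 10.2% and 9.34% with Ago2. The 2 starts of miR-210-3p were arranged the other way. Arms with both kinds of start were therefore counted, a comparison added after the values had been seen. At 3 d, 7 arms with 100 reads or more per library had both bases at 10% or more of the reads in 1 of the libraries. The U share of their C and U reads was higher with Ago2 in 2 of the 7. miR-210-3p differed most in that direction, by 56.4 percentage points, followed by an unnamed arm at 39.6. At 30 d it was again higher with Ago2 in 2 of 8 arms, and miR-210-3p differed by 74.7 points and the same unnamed arm by 14.4. In the other direction, miR-993-5p differed by -70.3 and -75.8 points at 3 d and 30 d, with only 120 reads in the Ago2 library of 3 d. Another unnamed arm, with 8129 and 7216 Ago2 reads, differed by -71.6 and -70.8 points.

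Among all arms, most had nearly the same starts with both proteins. The share of an arm's main start differed between Ago2 and Ago1 by at least 10 percentage points in 27 of 113 arms at 3 d, which is 23.9%, and in 30 of 126 at 30 d, which is 23.8%. The median absolute difference was 1.95 points at 3 d and 1.14 points at 30 d. For miR-210-3p the difference was -56.3 points at 3 d, the sixth in size, and -74.7 points at 30 d, the third. The difference was -75.9 and -84.9 points for miR-31b-5p, which led at both ages. miR-993-5p stood at -69.1 and -75.05 points. At 3 d the other arms of the first 5 were unnamed and differed by 75.9, 71.04 and 64.7 points, and at 30 d by 74.5 and 72.7 points. Judged by the library with fewer reads, miR-210-3p was the most deeply read of these arms, with 3076 reads at 3 d. With a minimum of 1000 reads in each library it was second at both ages, of 58 and 73 arms.

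**Figure D2:**
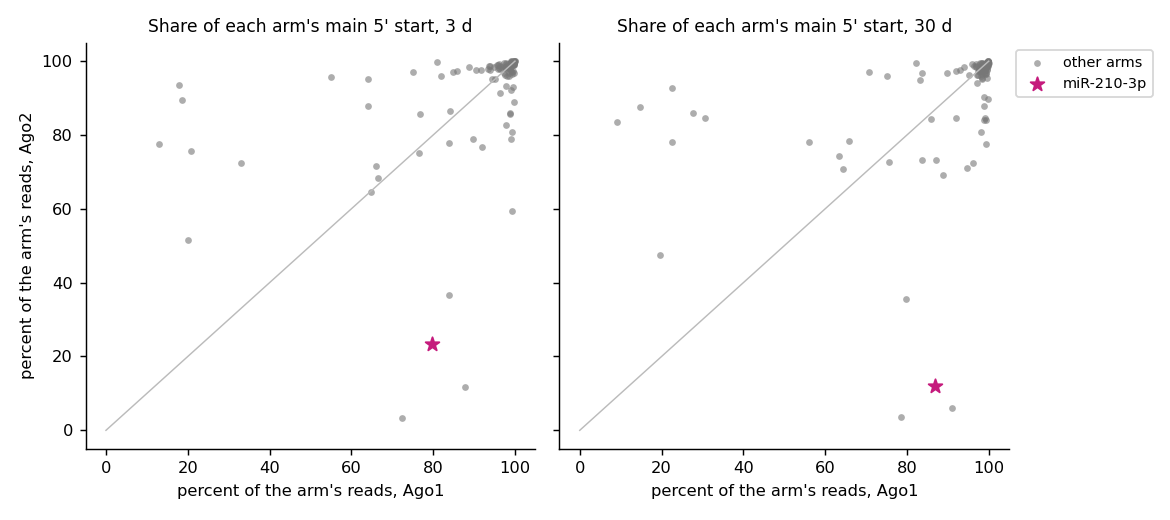
Percent of each arm's reads that begin at its main 5′ start, with Ago1 (horizontal axis) against Ago2 (vertical axis), at 3 d (left, 113 arms) and 30 d (right, 126 arms), 1 point per arm and the diagonal marking equal shares. Most arms sit near the upper right corner, while miR-210-3p (star) sits at 79.7% and 23.3% at 3 d and at 86.8% and 12.1% at 30 d.

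The comparison of Ago2 with Ago1 asks whether a strand takes another share of the reads bound to each protein. As a whole, miR-210-3p stood at 5957 and 11043 RPM in the Ago1 libraries of 3 d and 30 d and at 228 and 481 RPM in those of Ago2, so both Ago1 libraries lay above both Ago2 libraries. The log2 ratio of Ago2 over Ago1, with 1 RPM added to each value, was -4.70 (-4.76 to -4.66) at 3 d and -4.52 (-4.54 to -4.50) at 30 d. Other scalings gave -4.18 to -3.69 at 3 d and -4.55 to -3.71 at 30 d, outside the counting intervals. Lower values with Ago2, by 2-fold or more, were found in 54 of 90 arms whose mean reached 100 RPM at 3 d, or 60.0%, and in 53 of 87 at 30 d, or 60.9%. Higher values by that fold were found in 24 arms, or 26.7%, and in 27 arms, or 31.0%. The median over arms was -3.10 and -2.53, so a lower RPM with Ago2 was common. RPM is a share of a library, and miR-263a-5p alone held 484052 and 549506 RPM with Ago2 against 50498 and 37043 with Ago1. That lowers the RPM of all other arms with Ago2. With totals that leave out the 10 most abundant arms, the medians rose by 1.0 and 0.73. By those totals 50 and 49 arms were still lower by 2-fold or more. Of the measured arms, 25 at 3 d and 18 at 30 d lay below miR-210-3p.

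Split by start, the distance between the proteins differed. The C start stood at 4746 RPM with Ago1 against 53.2 RPM with Ago2 at 3 d, a log2 ratio of -6.45 (-6.59 to -6.37). At 30 d the values were 9590.4 and 58.3 RPM, a ratio of -7.34 (-7.43 to -7.30). For the U start they were 1204 and 174 RPM at 3 d, a ratio of -2.78 (-2.85 to -2.73), and 1444 and 419.9 RPM at 30 d, a ratio of -1.78 (-1.81 to -1.75). The C start was thus the form with the larger distance at both ages, and the U start was also lower with Ago2. Under other scalings the C start stood at -5.93 to -5.46 at 3 d and -7.37 to -6.54 at 30 d. The U start stood at -2.26 to -1.77 at 3 d and at -1.81 to -0.97 at 30 d, where 1 scaling put it under 2-fold.

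**Figure D3:**
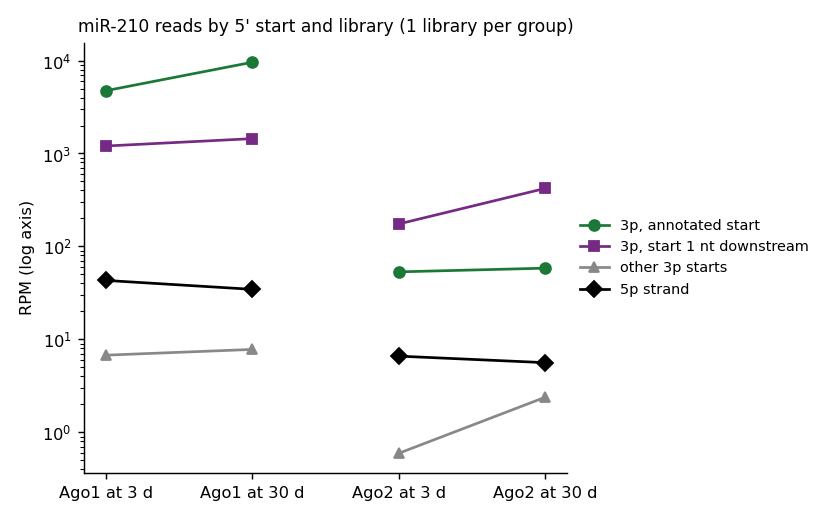
Abundance in RPM (vertical log axis) of the miR-210-3p starts and of miR-210-5p in the 4 libraries, 1 point per library, with lines joining the ages of a protein. With Ago1 the annotated C start goes from 4746 to 9590.4 RPM and the start 1 nt downstream from 1204 to 1444, while with Ago2 they go from 53.2 to 58.3 and from 174 to 419.9 RPM.

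The comparison of 30 d with 3 d asks how the miR-210 forms bound to each protein differ with age. miR-210-3p was higher at 30 d with both proteins, and the form that carried most of the difference was the leading form of each. With Ago1 the log2 ratio of 30 d over 3 d was 1.01 (1.01 to 1.02) for the C start and 0.26 (0.24 to 0.28) for the U start. With Ago2 it was 0.13 (0.01 to 0.26) for the C start, and -0.050 or -0.10 under 2 other scalings, so its direction depends on the scaling. The U start with Ago2 had a ratio of 1.26 (1.21 to 1.33). By RPM, the 2 age ratios of the C start differed by -0.88 (-1.01 to -0.76), Ago2 minus Ago1. Those of the U start differed by 1.01 (0.94 to 1.07). These intervals leave out the scaling, on which both differences depend. TMM scaling put the U-start ratios at 0.63 for Ago1 and 1.08 for Ago2, and the C-start ratios at 1.39 and -0.050. The median of ratios moved them less, to 0.36 and 1.29 for the U start and 1.12 and 0.16 for the C start. Under every scaling used, the U-start ratio was higher with Ago2 and the C-start ratio higher with Ago1.

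For the whole strand the age ratios were 0.89 (0.88 to 0.90) with Ago1 and 1.07 (1.02 to 1.13) with Ago2. In the Ago1 libraries 1 of 82 arms or 1.22% was at least 2-fold higher at 30 d and 1 lower, the median was -0.02, and 3 arms lay above miR-210-3p, which stayed under 2-fold. In the Ago2 libraries 11 of 68 arms or 16.2% were at least 2-fold higher, miR-210-3p among them, and 8 arms or 11.8% were lower, with a median of 0.35 and 9 arms above it. TMM scaling put the Ago1 ratio past 2-fold, at 1.26, and the Ago2 ratio under it, at 0.89. Totals without the 10 most abundant arms also put the Ago2 ratio under 2-fold, at 0.85, while the median of ratios kept it past, at 1.10. The ratio of U-start to C-start reads, which needs no scaling, differed with age by -0.75 (-0.78 to -0.73) on the log2 scale with Ago1 and by 1.14 (1.0 to 1.28) with Ago2. Among all arms, the main-start share differed by at least 10 points between the ages in 3 of 165 with Ago1, or 1.82%, and in 3 of 125 with Ago2, or 2.40%. miR-210-3p was among the latter, at -11.2 points, and stood at 7.17 points with Ago1.

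The 3′ ends also differed by start and by protein. Most 3p reads ended 2 nt before the annotated end, which makes the 21-nt C form and the 20-nt U form. That end was found on 89.7% and 95.6% of C-start reads with Ago1 at 3 d and 30 d, and on 88.9% and 90.6% with Ago2. Of U-start reads, 77.9% and 80.3% had it with Ago1 at 3 d and 30 d, and 50.1% and 56.5% with Ago2. The U start with Ago2 thus held the most varied ends.

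Mean lengths of C-start reads were 21.1 nt with an SD over reads of 0.479 at 3 d and 21.04 nt (SD 0.276) at 30 d in the Ago1 libraries, and 21.1 nt (SD 0.491) and 21.1 nt (SD 0.421) in those of Ago2. Mean lengths of U-start reads were 20.3 nt (SD 0.646) and 20.2 nt (SD 0.562) with Ago1 at 3 d and 30 d, and 20.7 nt (SD 0.829) and 20.5 nt (SD 0.743) with Ago2. The forms therefore differed by less than the 1 nt of their starts, because U-start reads ended further downstream. On average C-start reads ended from 1.87 to 1.96 nt before the annotated end, and U-start reads 1.69 and 1.76 nt before it with Ago1 and 1.29 and 1.55 nt with Ago2.

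Reads that reached or passed the annotated 3p end were a smaller share at 30 d among U-start reads of both proteins and C-start reads of Ago1. With Ago2 they made up 21.4% (19.8 to 23.2) of U-start reads at 3 d and 9.57% (9.10 to 10.1) at 30 d. In the Ago1 libraries they made up 9.11% (8.80 to 9.42) and 5.54% (5.32 to 5.77) of U-start reads and 4.08% (3.98 to 4.19) and 0.944% (0.907 to 0.982) of C-start reads. C-start reads with Ago2 had 2.65% (1.70 to 4.10) and 1.89% (1.38 to 2.58), whose intervals overlap. At the short end, U-start reads 3 nt short of the annotated end went from 0.596% at 3 d to 3.93% at 30 d with Ago2, against 0.299% and 0.479% with Ago1.

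Earlier 3′ ends at 30 d were common among all arms. The mean 3′ end lay further upstream at 30 d in 125 of 165 arms with Ago1 and in 110 of 125 with Ago2, with medians of -0.06 and -0.10 nt. miR-210-3p stood at -0.11 nt with Ago1 and -0.16 nt with Ago2, inside the range of the other arms, of which 69 and 47 had lower values. Between the proteins its mean end lay 0.40 nt further downstream with Ago2 at 3 d and 0.35 nt at 30 d. These whole-strand means, also those between the ages, mix the 2 starts, whose shares differ between the libraries. C-start reads alone ended 1.87 and 1.96 nt before the annotated end with Ago1 and 1.90 and 1.91 nt with Ago2. U-start reads alone ended 1.69 and 1.76 nt before it with Ago1 and 1.29 and 1.55 nt with Ago2, so further downstream with Ago2. By whole-strand means between the proteins, the median arm stood at 0.03 and -0.01 nt. In that comparison 16 of 113 and 14 of 126 arms had higher values than miR-210-3p.

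**Figure D4:**
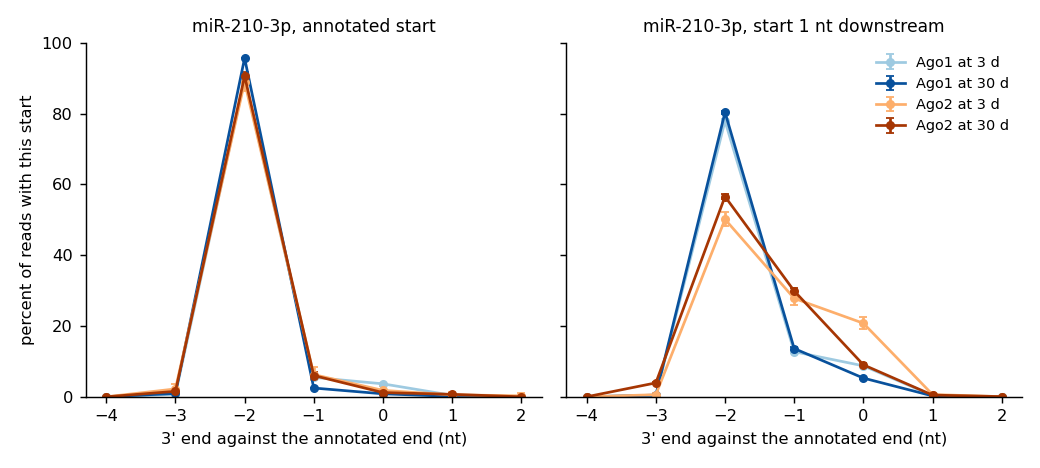
Percent of reads (vertical axis) by 3′ end, in nt from the annotated end of miR-210-3p (horizontal axis), for reads with the annotated C start (left) and the start 1 nt downstream (right), with 95% Wilson intervals and 1 line per library. The peak 2 nt before the annotated end holds 88.9% to 95.6% of C-start reads, and on the right 77.9% and 80.3% with Ago1 but 50.1% and 56.5% with Ago2.

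miR-210-5p, the partner strand, was rare. Its 3 most abundant forms are shown with the seed in capitals because they differ at the 3′ end only:
5p, 23 nt: aGCTGCTGgccactgcacaagat
5p, 22 nt: aGCTGCTGgccactgcacaaga
5p, 21 nt: aGCTGCTGgccactgcacaag
The strand had 1146 and 913 reads in the Ago1 libraries of 3 d and 30 d, and 89 and 194 in those of Ago2. Of the reads of both strands it made up 0.717% (0.677 to 0.760) and 0.312% (0.292 to 0.332) with Ago1, and 2.81% (2.29 to 3.45) and 1.15% (1.0 to 1.33) with Ago2. The 3p strand thus led in all 4 libraries, from 34.6 to 319.9 reads per 5p read, and the 5p share was higher with Ago2 at both ages and lower at 30 d with both proteins. The log2 ratio of 30 d over 3 d for the 5p strand itself was -0.31 (-0.44 to -0.19) with Ago1, and 0.053 under 1 other scaling. With Ago2 it was -0.20 (-0.60 to 0.15), so a difference was not detectable at this depth.

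Starts of the 5p strand did not divide by protein as those of the 3p strand did. The annotated A start held 98.0% and 97.8% of 5p reads with Ago1 at 3 d and 30 d, and 95.5% and 99.5% with Ago2. Its 3′ ends differed. The 23-nt form took 56.3% (53.4 to 59.2) and 59.5% (56.2 to 62.6) of these reads with Ago1, against 11.8% (6.52 to 20.3) and 6.22% (3.59 to 10.6) with Ago2. The 22-nt form took 40.5% (37.7 to 43.4) and 36.5% (33.4 to 39.7) with Ago1, and 56.5% (45.9 to 66.5) and 28.5% (22.6 to 35.2) with Ago2. The 21-nt form took 1.96% and 2.91% with Ago1, against 29.4% (20.8 to 39.8) and 62.7% (55.7 to 69.2) with Ago2. The leading 5p form was thus that of 23 nt in both Ago1 libraries, of 22 nt with Ago2 at 3 d and of 21 nt with Ago2 at 30 d. The 5p strand was shorter with Ago2, while the U-start 3p reads were longer there.

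In the predicted fold of the stretch (RNAfold, -28.6 kcal/mol) the C start base was paired with base 21 of the 5p strand and the U start base with base 20. The predicted duplex of the 23-nt 5p form had -28.8 kcal/mol with the 21-nt C form and -25.9 kcal/mol with the 20-nt U form. With the 21-nt 5p form, which leads with Ago2 at 30 d, the values were -27.7 and -25.9 kcal/mol. These energies are predictions and no measured difference was tested against them.

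Pieces of the hairpin that the matching limits leave out were also listed, nearly all with Ago1. The members nearest the limit on ends stopped 7 nt before the annotated end, a 5p sequence of 2 reads and a 3p sequence of 1 read, and none ran more than 5 nt past it. Those nearest the limit on starts were 3p sequences that began 6 nt upstream, with 2 reads, or 7 nt downstream, with up to 4 reads in a library. Just outside lay 5p sequences that ran through the loop. Outside the limits were 393 and 328 reads in the Ago1 libraries of 3 d and 30 d, and 3 and 1 in those of Ago2. Per 1000 reads of miR-210-3p these were 2.48 and 1.12 with Ago1 against 0.975 and 0.0602 with Ago2. The 3 pieces with the most reads are shown because they end where the 3p strand begins, with the loop in capitals:
5p with loop, 36 nt: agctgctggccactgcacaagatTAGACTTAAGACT
piece from base 12 of the 5p strand, 25 nt: actgcacaagatTAGACTTAAGACT
piece from base 17 of the 5p strand, 20 nt: acaagatTAGACTTAAGACT
The 36-nt form had 16 reads at 3 d and 68 at 30 d with Ago1 and none with Ago2, where a count of 0 allows up to 3 reads. The 25-nt form had 173 and 80 reads with Ago1 and 2 and 0 with Ago2. The 20-nt form had 77 and 85 reads with Ago1, where it led at 30 d, and none with Ago2.

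The 3′ ends of these loop pieces can be set beside the 3p starts. With Ago1 at 3 d, 324 reads ended just before the C start and 10 just before the U start, so that 2.99% (1.63 to 5.42) of them fell to the U start. At 30 d there were 271 and 3 reads, or 1.09% (0.373 to 3.17). The U start held 20.2% and 13.1% of the 3p reads of the same libraries. A further 55 and 51 reads ended 1 nt earlier than those before the C start. With Ago2 the 4 reads were too few to give a share.

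**Figure D5:**
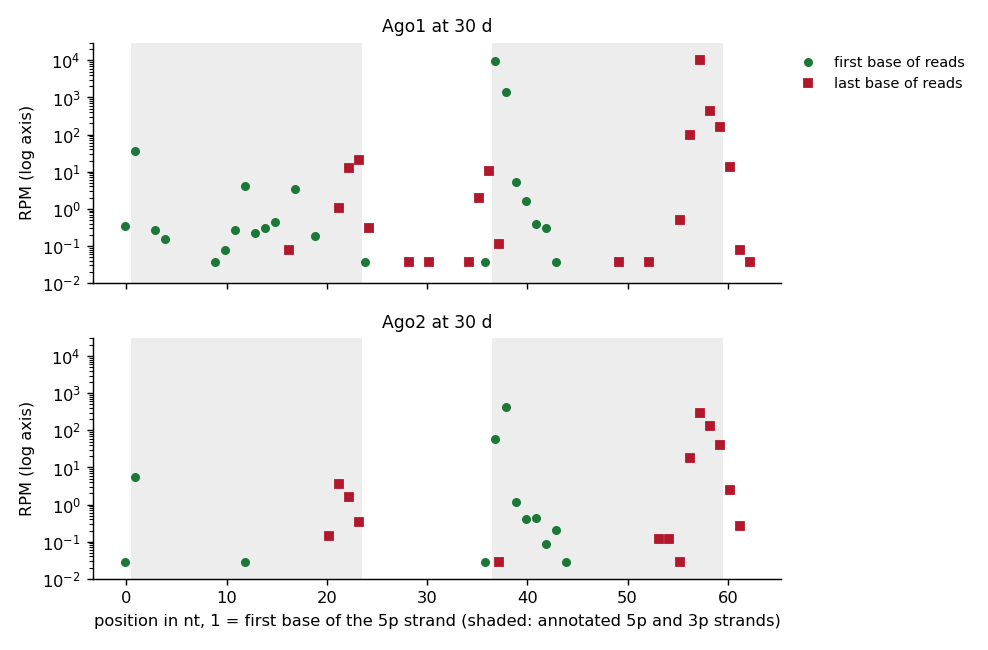
First (circles) and last (squares) bases of all listed reads of the hairpin stretch, by position in nt from the first base of the 5p strand (horizontal axis), in RPM (vertical log axis), with Ago1 (top) and Ago2 (bottom) at 30 d, 1 library each and the annotated strands shaded. The higher of the neighbouring first-base points at the start of the 3p strand is the annotated C start with Ago1, at 9590.4 RPM, and the next base with Ago2, at 419.9 RPM, and nearly all points for loop ends are with Ago1.

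A list of arms known from the eye and nervous system was set beside miR-210-3p. Of its 16 arms 15 were named, and 8 at 3 d and 9 at 30 d passed the minimum of 100 RPM for the comparison of proteins, which an arm can pass through 1 library alone. With Ago2, 7 of 8 were at least 2-fold lower at 3 d and 7 of 9 at 30 d, with medians of -3.71 and -2.70. Over all arms the shares were 60.0% and 60.9% and the medians -3.10 and -2.53. miR-190-5p stood at -3.33 and -2.89 at the 2 ages and miR-1000-5p, which is known to protect neurons from excess glutamate release, at -3.53 and -2.10. miR-279-3p, which limits the formation of CO2-sensing neurons, stood at -4.95 and -3.94. The arms that went the other way were miR-263a-5p, which protects sensory bristles, at 3.26 and 3.89, and at 30 d miR-263b-5p at 2.80.

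With age, none of the 8 measured arms of this list was at least 2-fold higher or lower with Ago1, where 1.22% of all arms were higher and 1.22% lower. The highest was miR-996-3p at 0.99, beside 0.89 for miR-210-3p, and the lowest miR-987-5p at -0.53. With Ago2, 1 of 3 measured arms was at least 2-fold higher, miR-263b-5p at 2.75, against 16.2% of all arms, and miR-190-5p stood at 0.47. miR-263b-5p had 50.8 RPM at 3 d and 348 RPM at 30 d with Ago2. It passed the minimum there only through the library where it was high, so its higher value is partly set by the minimum. With Ago1 it had 85.3 and 49.0 RPM, under the minimum, and was not among the measured arms. Arms of the list below the minimum included miR-7-5p, a miRNA of photoreceptor development, with 10.7 and 7.67 RPM with Ago1, and miR-124-3p, the neuronal miRNA, with 6.46 and 9.68 RPM.

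Likeness of pattern was measured over the 4 libraries as the Euclidean distance between log2(RPM + 1) values centred on their mean, among the 91 arms that reached a mean of 100 RPM. The arms nearest to miR-210-3p were 2 unnamed arms at distances of 0.41 and 0.58, miR-13b-3p at 0.60, miR-281-5p at 0.71 and miR-279-3p at 0.77, against a median of 2.44 over all arms. miR-281 and miR-13b each have 2 annotated hairpins, whose reads were not separated. miR-13b-3p had 213 and 226 RPM with Ago1 and 5.19 and 10.3 RPM with Ago2, and miR-279-3p had 888 and 801 RPM with Ago1 and 27.7 and 51.1 RPM with Ago2. These arms were picked for likeness to miR-210-3p, so high levels with Ago1 and low levels with Ago2 follow from the choice. With age they were less alike in the Ago1 libraries, where miR-210-3p went from 5957 to 11043 RPM.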

How the data were processed

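The authors deposited, for each of the 4 libraries, a list of small RNA sequences with raw read counts and no normalization. Per the submitters' processing notes, CASAVA 1.8.2, Bowtie and the genome build dm3 were used. The Bowtie version, adapter trimming and the filter that set which sequences are listed were not stated in any source used here, so totals are those of the listed reads. Samples were grouped by the protein and age in their labels. The members, lists and comparisons were chosen with earlier results of these data known. The genes named are the 2 strands, 3p starts with at least 1% of reads, the eye and nervous system list, the 5 arms nearest in pattern and the 5 with the largest start difference per age.

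A sequence listed more than once was counted once; no miR-210 sequence was. All 7181 sequences, 16 to 44 nt long, were grouped into 632 arms under a more abundant sequence by the same overlap limits as the members. The miR-210 strands were found by short motifs and placed by the annotated lengths and spacing. Names of other arms were recalled, are not read from the files and were not checked against a reference, and unrecalled arms are called unnamed. miR-124-5p was given to no arm. Hairpin pieces outside the limits were added after values had been seen. Starts and ends were assigned by exact sequence, and hairpins with the same mature sequence were not separated. Ratios used a pseudocount of 1 RPM and an exact conditional binomial interval of the counts, differences of ratios the delta method, and shares Wilson intervals. Since PCR copies cannot be told from molecules, intervals and floors cover counting error only; 0 reads allow up to 3, or 0.0868 to 0.222 RPM. Pairing was predicted with ViennaRNA 2.7.2. Other scalings were TMM (edgeR 4.0.16), the median of ratios and totals without the 10 most abundant arms. Scripts ran in Python 3.11.15 with SciPy 1.17.1 and were tested on simulated data.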

Additional observations from a re-analysis of the deposited data

Results flagged for a closer look

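The shares of the miR-210-3p starts went opposite ways with age in the 2 proteins, by 1 library per group, and that difference was not tested. From 3 d to 30 d the share of the C start differed by 7.17 percentage points with Ago1 and by -11.2 points with Ago2. The share of the U start differed by -7.13 points with Ago1 and by 11.0 points with Ago2. The 3 d library of Ago2 listed the fewest reads, with 3076 of miR-210-3p.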

How the results depend on the processing

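Shares of the starts and of the 5p strand stayed within their counting intervals when repeated listings were summed, the overlap was raised to 16 nt or lengths were limited to 20 to 24 nt, and ratios did so with a pseudocount of 0.1 RPM. Scaling moved the ratios of miR-210-3p without turning a sign. In the order TMM, median of ratios and totals without the 10 most abundant arms, Ago2 over Ago1 was -4.18, -3.82 and -3.69 at 3 d and -4.55, -3.71 and -3.78 at 30 d. 30 d over 3 d with Ago1 was 1.26, 0.99 and 0.94, and with Ago2 0.89, 1.10 and 0.85. These scalings moved the median of all arms by up to 1.0. With 20 to 24 nt only, Ago2 over Ago1 was -4.64 and -4.48, and the mean U-start length at 30 d was 20.25 nt with Ago1 and 20.5 nt with Ago2. The sign turned for the C start, 30 d over 3 d with Ago2, at -0.050 with TMM and -0.10 with those totals, and for the 5p strand with Ago1 at 0.053 with TMM; these follow from the scaling factors, as the counts are the same.

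Counts of arms depend on the minimum, since more arms enter. The numbers of arms measured at the lower minimums are not given here, so the counts at them give no shares. With 10 RPM and with no minimum, arms at least 2-fold higher numbered 41 and 72 (Ago2 over Ago1, 3 d), 44 and 76 (30 d), 3 and 10 (age, Ago1) and 25 and 35 (age, Ago2), and arms lower 90 and 133, 87 and 131, 11 and 15, and 17 and 24. For age with Ago1, 7, 3 and 2 arms were higher under the 3 scalings, and with Ago2 7, 13 and 7. With at least 1000 reads, 9, 10, 0 and 1 arms had a main-start share that differed by 10 points, in the same order of comparisons, the last being miR-210-3p. They were out of 58, 73, 97 and 69 arms.

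No paired analysis was possible because each group has 1 library, which also left no replicate to leave out. The alternative limited to a reference hairpin was not run, as no hairpin sequence was used here. Depth limits the Ago2 values at 3 d most, where miR-210-5p has 89 reads.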
